A study of Danio rerio with 4 samples.

Results

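Macrophages of the zebrafish skull roof (calvaria) were identified in single-cell RNA sequencing data as cells with at least 1 transcript of 2 or more of *mpeg1.1*, *mfap4*, *marco* and *csf1ra* and none of *mpx*, the myeloperoxidase gene of neutrophils. By this rule 107 of 21311 kept cells were macrophages (0.502%). The cells were chosen by the counts of these 5 genes, so the levels of these genes, and every contrast of macrophages with other cells of the same library, are given as description without a test. Transcripts were counted by unique molecular identifiers (UMIs), so that copies of 1 captured molecule count once. Levels are given as CPM, the UMIs of a gene in every 1000000 UMIs of the cells concerned.

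The study compared calvaria before and after the sutures between skull bones form. Each of the 4 libraries pooled several fish of the Tubingen strain, and dead cells were removed by DAPI staining. Adult replicate 1 came from 10 ecad:YFP fish of 22–25 mm, depleted of YFP+ cells. Adult replicate 2 came from 10 Tubingen fish of 22–25 mm with no reporter gate. Juvenile replicate 1 came from 20 ecad:YFP fish of 9–11 mm, depleted of YFP+ cells, and juvenile replicate 2 from 20 sp7:GFP fish of 9–11 mm, depleted of GFP+ cells. YFP is carried by epithelial cells in the ecad:YFP line, and GFP by osteoblasts in the sp7:GFP line. Depletion of YFP+ cells was the one gate used at both stages, so for the other libraries stage and gate cannot be told apart.

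Macrophages engulf dead cells, microbes and debris, break them down in lysosomes, and can present fragments of proteins on MHC class II molecules. They recycle iron from engulfed red blood cells, handle lipid, and release cytokines and chemokines that call in other cells. In bone, precursors of the same lineage fuse into osteoclasts, which resorb mineral, and in the brain the resident macrophages are the microglia.

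Macrophages were not spread evenly over the libraries. Adult replicate 1 held 47 among 2072 kept cells (2.27%, exact 95% interval 1.67–3.01) and adult replicate 2 held 0 of 2994, with an exact upper limit of 0.123%. Juvenile replicate 1 held 49 of 8313 (0.589%, 0.436–0.779) and juvenile replicate 2 held 11 of 7932 (0.139%, 0.0692–0.248). The 2 adult libraries thus lay above and below both juvenile libraries. The mean share was 1.13% in adult libraries and 0.364% in juvenile libraries, a difference of 0.770 percentage points with a pooled SD of 1.16, and an exact two-sided permutation test gave p = 1, where 2 libraries against 2 cannot go below 0.333. Between the libraries of the ecad:YFP gate the share was 1.68 percentage points higher in the adult library, and without adult replicate 1 the difference was -0.364.

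**Figure D1:**
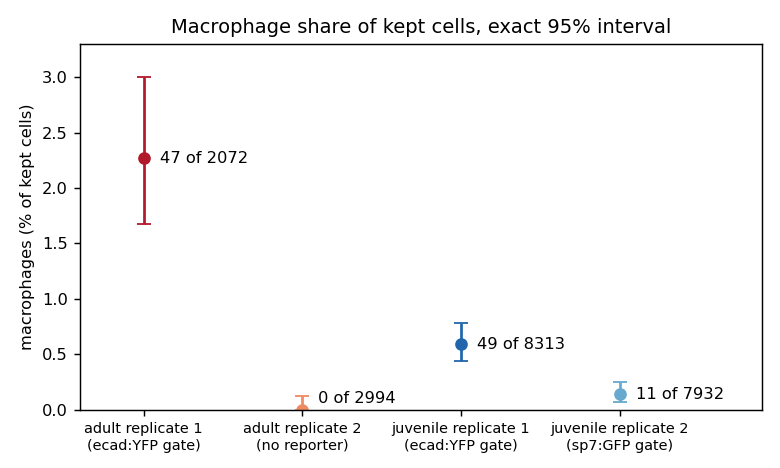
Macrophages as a percentage of kept cells in each library, with exact 95% binomial intervals that cover counting error alone; the numbers are macrophages of kept cells. Adult replicate 1 stood highest at 2.27% and adult replicate 2 lowest at 0.

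Adult replicate 2 also lacked cells close to the rule. It had 0 UMIs of *mpeg1.1* and *csf1ra*, 9 UMIs of *mfap4* in 8 cells and 2 of *marco* in 2 cells, so 10 of its cells had exactly 1 marker. It held 15 *mpx* UMIs in 4 cells and 2 lymphocytes. Expression in macrophages was therefore compared between adult replicate 1 and the 2 juvenile libraries, and the spread of the adult stage was taken to be that of the juvenile libraries.

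The macrophages carried 248799 UMIs in adult replicate 1, 233554 in juvenile replicate 1 and 51955 in juvenile replicate 2. A gene with 3 UMIs stood at 12.1, 12.8 and 57.7 CPM in these sums, so juvenile replicate 2 resolved low levels least. The median macrophage had 4734, 3919 and 4759 UMIs in the same order, and the median other cell 2778, 1868 and 2060. Because macrophages were the deeper cells, the share of them with a UMI of a gene overstates their difference from other cells, and shares that matter are also given after every cell was thinned to 1000 UMIs.

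Of the markers, *mfap4*, a marker of zebrafish macrophages, was found in 43 of 47 macrophages of adult replicate 1, 41 of 49 of juvenile replicate 1 and 8 of 11 of juvenile replicate 2. *mpeg1.1*, which encodes the pore-forming protein perforin-2, was found in 38, 37 and 9 of these cells. *marco*, a scavenger receptor gene, was found in 38, 34 and 9, and *csf1ra*, the receptor gene for the growth factor CSF1, in 6, 7 and 3. The macrophages thus rested on the first 3 genes, with *csf1ra* in 16 of 107. Just inside the rule lay 56 macrophages with exactly 2 markers, against 43 with 3 and 8 with 4. Just outside it lay 374 cells with exactly 1 marker, 1 cell set aside for *mpx* and 1 for too many genes. No marker was found in more than 1.43% of the other cells of any library.

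Genes outside the rule were described next, among those with many UMIs in macrophages, so their contrast with other cells is no test of the label. Among 356 genes with at least 200 UMIs in macrophages, 54 were at least 10-fold above the other cells in each of the 3 libraries. The 3 chains of complement C1q, which starts the classical pathway, were among them. *c1qb* stood at 2488 CPM in macrophages of adult replicate 1, 604 in juvenile replicate 1 and 751 in juvenile replicate 2, against 25.3, 3.0 and 5.33 CPM in the other cells. *c1qc* (1612, 779 and 539 CPM) and *c1qa* (543, 278 and 558 CPM) showed the same contrast. *acod1*, whose enzyme makes the antimicrobial metabolite itaconate, stood at 1873, 921 and 2059 CPM. Further leading genes of known function were *mafbb* (a Maf transcription factor), *ctss2.2* (a cathepsin S), *cmklr1* (a chemerin receptor), *pglyrp5* (a peptidoglycan recognition protein), *cxcl19* and *ccl34a.4* (chemokines), *havcr1* and *itgae.1*. The chemokine gene *ccl34b.1* stood at 792, 3019 and 1790 CPM, against 16.7 CPM or less in the other cells of each library.

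**Figure D2:**
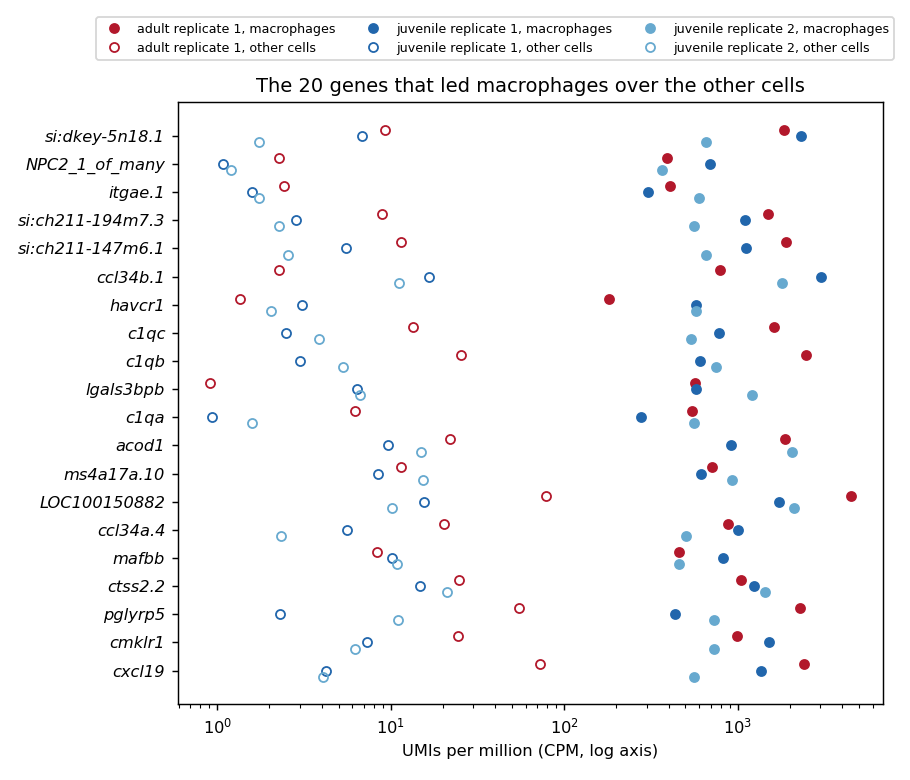
The 20 genes outside the rule with the highest lowest ratio of macrophages to other cells over the 3 libraries, as CPM on a log axis; filled points are macrophages and open points the other cells of the same library. Because of this choice filled points lie above open points for all 20 genes. *si:dkey-5n18.1* stood at 1861, 2325 and 654 CPM in macrophages, against 9.23, 6.84 and 1.75 CPM in other cells.

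Markers of other cell types were counted in the same cells. All 7 B lymphocyte genes measured but *blnk* were at 0, as were 8 of 10 pigment cell genes over the 3 libraries. Of 13 T or NK lymphocyte genes, 12 were at 0 in adult replicate 1, 7 in juvenile replicate 1 and 12 in juvenile replicate 2. Their sum was 217, 55.7 and 19.2 CPM in macrophages, all of it *cd8a* in the adult library, against 59.9, 393 and 417 CPM in other cells. Summed mesenchyme markers stood at 543, 278 and 77.0 CPM in macrophages, against 9290, 2039 and 1179 CPM in other cells. Summed red blood cell markers stood at 20.1, 2620 and 77.0 CPM in macrophages, against 993, 46018 and 1102 CPM in other cells. In juvenile replicate 1 the hemoglobin gene *hbba1* had a UMI in 49 of 49 macrophages and in 99.9% of the other cells, macrophages and other cells alike. Summed neutrophil markers stood at 518, 1267 and 423 CPM in macrophages, against 2871, 887 and 1533 CPM in other cells. Osteoblast, chondrocyte, endothelial, epithelial, neuron and glia markers each summed to 265 CPM or less in the macrophages of each library. Endothelial markers, at 34.3 and 77.0 CPM in the juvenile libraries, were above the other cells there (24.5 and 13.3 CPM). In single macrophages, 2 or more neutrophil markers were found in 31 of 107 (17 in adult replicate 1, 14 in juvenile replicate 1), mesenchyme markers in 12, neuron markers in 11, chondrocyte markers in 9 and red blood cell markers in 48, all of juvenile replicate 1. Leaving out cells with 2 or more markers of another class left 26, 1 and 5 macrophages. Of the kept cells, 222 barcodes were shared between pairs of libraries, and 2 macrophages carried such a barcode.

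The stage comparison asked which genes of macrophages differ once the sutures are established. It covered 2514 genes and found 11 higher (0.438% of those tested) and 4 lower (0.159%) in adult than in juvenile macrophages at an adjusted p under 0.05 (edgeR quasi-likelihood test, Benjamini-Hochberg adjustment). Higher in adult macrophages were the ferritin gene *fthl27*, the antigen presentation genes *cd74a* and *b2m*, *icn*, *RPL37A*, *grn1*, the clotting factor XIII genes *f13a1a.1* and *F13A1_1_of_many*, *BX908782.2*, *LOC100535170* and *si:ch211-147m6.2*. Lower were the apolipoprotein genes *apoc1* and *apoeb*, the cathepsin gene *ctsl.1* and *g0s2*. All 15 kept their direction in every alternative in which they were tested. The alternatives reuse the same libraries, and for each of the 15 the adult library lay above or below both juvenile ones, so this was largely set in advance. None of the 15 passed when libraries were scaled by size factors of DESeq2 or by total UMIs, and only *apoc1* passed in DESeq2. Of the 15 genes, 7 had UMIs in at least 20 cells of the higher stage and 2 had over 90% of them in 1 cell.

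**Figure D3:**
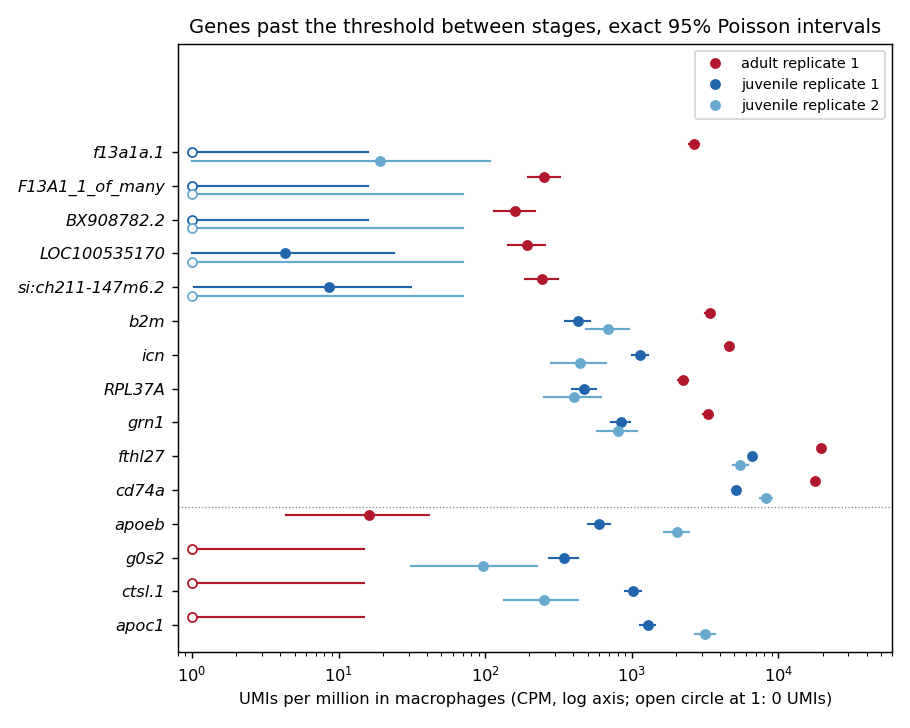
Levels in macrophages of the 15 genes past the threshold, as CPM on a log axis, in adult replicate 1 (red) and the juvenile replicates (blue), with exact 95% Poisson intervals that cover counting error alone. Genes above the dotted line were higher in the adult library, led in level by *fthl27* at 19654 CPM, and the 4 below it were lower, 3 of them at 0 UMIs in adult macrophages.

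The gene of smallest adjusted p among those carried by nearly every macrophage was *fthl27*, a ferritin heavy chain-like gene. It stood at 19654 CPM in adult replicate 1, against 6615 and 5505 CPM in juvenile replicates 1 and 2, and had UMIs in 47 of 47, 49 of 49 and 10 of 11 macrophages. The adult library lay above both juvenile libraries, at 3.06 times their pooled level (2.90–3.24 from counting error) and 2.97 times that of the same gate. The fitted log2 fold change was 1.78 (SE 0.223, adjusted p = 0.000993, edgeR). In the other cells of the same libraries *fthl27* stood at 1576, 1905 and 1135 CPM, and the stage difference in macrophages minus that in the other cells had an adjusted p of 0.489. Against lymphocytes, of which adult replicate 1 held 9, the same test gave an adjusted p of 0.00893. Of 11 iron and heme genes measured, 5 were tested, 1 was higher (*fthl27* itself) and none lower. The median log2 fold change of the 5 was 1.78, beside -0.01 over all genes tested. That median is the value of *fthl27*, so it adds nothing to the result for that gene. *hmox1a*, the heme oxygenase gene that breaks down heme, stood at 1523 CPM in the adult library, against 441 and 192 CPM in the juvenile libraries (adjusted p = 0.129, edgeR). *fth1a*, another ferritin heavy chain gene, stood at 6608 CPM, against 3190 and 616 CPM (adjusted p = 0.208, edgeR). *slc40a1*, the gene of the iron exporter ferroportin, had 6 UMIs in the adult library, against 19 and 1. The ferritin genes are close copies of each other, and how the counting divided reads between them is uncertain.

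Of 15 antigen presentation genes measured, 11 were tested, 2 were higher and none lower, with a median log2 fold change of 1.29. In CPM, 8 of the 11 lay above both juvenile libraries, against 846 of all 2514 genes. This list too was chosen with earlier results of these data known, so these counts describe its members and test no group. *cd74a* encodes the invariant chain, which escorts MHC class II molecules. It stood at 17689 CPM in adult replicate 1, against 5134 and 8257 CPM in the juvenile libraries, and had UMIs in 47 of 47, 42 of 49 and 9 of 11 macrophages. Single macrophages ranged from 1110 to 58676 CPM in the adult library. In juvenile replicates 1 and 2 they ranged from 0 to 30790 and from 0 to 24213 CPM. Part of the adult macrophages thus lay within the juvenile range, so a raised level was not seen in all of them. Every adult macrophage with a *cd8a* UMI had *cd74a* at 18045 CPM or more, as did some without one. How much of the stage difference came from these cells was not tested. The adult library lay above both juvenile libraries, with a log2 fold change of 1.48 (SE 0.267, adjusted p = 0.0204, edgeR). In the other cells *cd74a* stood at 382 CPM in the adult library, against 315 and 283 CPM, and the 2 stage differences did not differ past the threshold (adjusted p = 1, edgeR). *b2m*, the light chain of MHC class I, stood at 3396 CPM in the adult library, against 428 and 693 CPM in the juvenile libraries (log2 fold change 2.70, SE 0.457, adjusted p = 0.0151, edgeR). The adult library again lay above both juvenile libraries, but single macrophages overlapped. They ranged from 0 to 15291 CPM in the adult library, and from 0 to 14726 and 0 to 2636 CPM in juvenile replicates 1 and 2. After thinning, 87.0% of adult macrophages had a *b2m* UMI, against 21.7% and 36.4% of juvenile macrophages, and 41.8%, 13.7% and 11.4% of the other cells. *b2m* was also higher outside the macrophages: in the other cells it stood at 863 CPM in the adult library, against 181 and 164 CPM, and the stage differences of macrophages and other cells did not differ past the threshold (adjusted p = 1, edgeR).

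The other members of this group were not past the threshold. *cd74b*, the second invariant chain gene, stood at 7066 CPM in the adult library, against 2864 and 4465 CPM in the juvenile libraries (adjusted p = 0.225, edgeR). *mhc2dab*, a class II gene, stood at 3175 CPM, against 1006 and 1347 CPM (adjusted p = 0.133, edgeR). *cd40*, a co-stimulatory receptor gene, stood at 864 CPM, against 163 and 212 CPM (adjusted p = 0.188, edgeR). All 3 stood highest in the adult library, as did 846 of all 2514 genes tested. *cd83*, a marker of activated antigen-presenting cells, did not separate the stages, at 1949 CPM, against 976 and 2926 CPM. The class II gene *mhc2b* had 29 UMIs, all in juvenile replicate 2. MHC genes come in many related copies that differ between fish, and their counts are uncertain for that reason.

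Lipid handling genes lay on the other side. Of 15 measured, 10 were tested, 2 were lower and none higher, and all 10 had a negative log2 fold change, with a median of -0.93. In CPM, 9 of the 10 lay below both juvenile libraries, against 815 of all 2514 genes. The list was chosen with earlier results of these data known, so these counts describe its members and test no group. Several members had few UMIs, such as *lpl* (5 adult against 10 juvenile) and *npc1* (9 against 14). *apoc1*, an apolipoprotein gene, had 0 UMIs in adult replicate 1 (adjusted p = 0.000168, edgeR). The juvenile libraries held 299 and 164 UMIs (1280 and 3157 CPM). On a floor of 3 UMIs in the adult library it was 134-fold lower than in the pooled juvenile libraries. The fold was 106 against juvenile replicate 1 alone and 262 against juvenile replicate 2 alone. A single juvenile cell held up to 126 *apoc1* UMIs, far over that floor, so these folds are no lower limits on the stage difference. The UMIs came from 0 of 47 adult macrophages, 6 of 49 of juvenile replicate 1 and 3 of 11 of juvenile replicate 2, so the difference rested on 9 juvenile cells. After thinning the shares were 0%, 10.9% and 27.3%, and in the other cells 0.44%, 0.486% and 0.51%. *apoeb*, the apolipoprotein E gene used as a microglia marker in zebrafish, stood at 16.1 CPM in the adult library, against 599 and 2040 CPM in the juvenile libraries, with 4 UMIs in 4 cells, against 140 in 4 and 106 in 3 (log2 fold change -6.21, SE 1.01, adjusted p = 0.0136, edgeR). Of the 9 juvenile cells with *apoc1*, 7 also carried *apoeb* and 5 carried *g0s2*.

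*g0s2*, whose mammalian product inhibits a lipase of fat droplets, had 0 UMIs in adult macrophages, against 80 in 5 cells and 5 in 1 cell of the juvenile libraries. On a floor of 3 UMIs it was 24.7-fold lower than in the pooled juvenile libraries (adjusted p = 0.0487, edgeR). Against juvenile replicate 2 alone the fold was 7.98. A single juvenile cell held up to 36 *g0s2* UMIs, so these folds too are no lower limits on the stage difference. *npc2*, a carrier of cholesterol in the lysosome, stood at 523 CPM in the adult library, against 1409 and 751 CPM, and was not past the threshold (adjusted p = 0.846, edgeR). The next gene by p among those lower, *zgc:153118*, stood at 8.04 CPM, against 223 and 385 CPM (adjusted p = 0.0866, edgeR), with 94.2% of its UMIs in juvenile replicate 1 from 1 cell.

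The juvenile *apoc1*+ cells differed from the remaining macrophages of their own libraries in further genes. These cells were singled out after the values were seen, and the contrast is a description. In juvenile replicate 1 the 6 *apoc1*+ cells had *ccl34b.1* at 15255 CPM, against 1902 CPM in the other 43 macrophages. *havcr1*, a receptor gene of the TIM family, stood at 1997 against 449 CPM, and *lgals3bpb*, a galectin-3-binding protein gene, at 2150 against 430 CPM. In juvenile replicate 2 the 3 *apoc1*+ cells had *ccl34b.1* at 12024 CPM against 178 CPM in the other 8, and *lgals3bpb* at 7922 against 156 CPM. These contrasts had the same direction in both juvenile libraries, and *apoeb*, *ccl34b.1*, *havcr1* and *lgals3bpb* are all genes of the microglia list. That list was chosen with earlier results of these data known, so the overlap is no test of a cell type. *ccl34b.1*, *havcr1* and *lgals3bpb* were also among the 20 genes that led macrophages as a whole. *p2ry12* of the same list had 0 UMIs in the *apoc1*+ cells and in the remaining macrophages of both libraries. Other genes turned round between the libraries. In juvenile replicate 1 the *apoc1*+ cells had more *c1qb* (1587 against 514 CPM) and *cd74a* (7628 against 4906 CPM). In juvenile replicate 2 they had less of both (141 against 847 CPM and 4244 against 8889 CPM).

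Lysosome genes did not move as a group: of 24 measured, 21 were tested, 1 was higher and 1 lower, and the median log2 fold change was -0.26. *ctsl.1*, a gene of the cathepsin L family of lysosomal proteases, had 0 UMIs in 47 adult macrophages, against 239 UMIs in 26 of 49 and 13 UMIs in 5 of 11 juvenile macrophages. On a floor of 3 UMIs it was 73.2-fold lower in the adult library than in the pooled juvenile libraries (adjusted p = 0.0151, edgeR). Against juvenile replicate 2 alone the fold was 20.8. A single juvenile cell held up to 65 *ctsl.1* UMIs, so these folds too are no lower limits on the stage difference. After thinning, *ctsl.1* was found in 0 of the adult macrophages, 28.3% of juvenile replicate 1 and 18.2% of juvenile replicate 2. In the other cells it was found in 0.593%, 0.351% and 0.480%. *cd63*, a tetraspanin gene, stood at 1813 CPM, against 2625 and 1213 CPM, *ctsba*, a cathepsin B gene, at 1350 CPM, against 1687 and 1001 CPM, and *psap*, the prosaposin gene, at 1350 CPM, against 1546 and 1905 CPM. *ctsla*, another cathepsin L gene, stood at 68.3 CPM, against 792 and 173 CPM (adjusted p = 0.343, edgeR).

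The 31 juvenile *ctsl.1*+ cells and the 9 *apoc1*+ cells had 1 cell in common. Whether that is fewer than independent detection of the 2 genes would give was not tested. In juvenile replicate 1, 26 cells with *ctsl.1* and 23 without were set side by side, again after the values were seen. The *ctsl.1*+ cells had *acp5a*, the tartrate-resistant acid phosphatase gene of osteoclasts, at 921 CPM, against 87.7 CPM in the cells without. *lgmn*, a lysosomal protease gene, stood at 2092 against 246 CPM, and *mafbb* at 1280 against 333 CPM. In juvenile replicate 2, with 5 *ctsl.1*+ cells and 6 without, *acp5a* stood at 75.9 against 39.0 CPM and *lgmn* at 494 against 390 CPM, contrasts that rest on few UMIs.

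**Figure D4:**
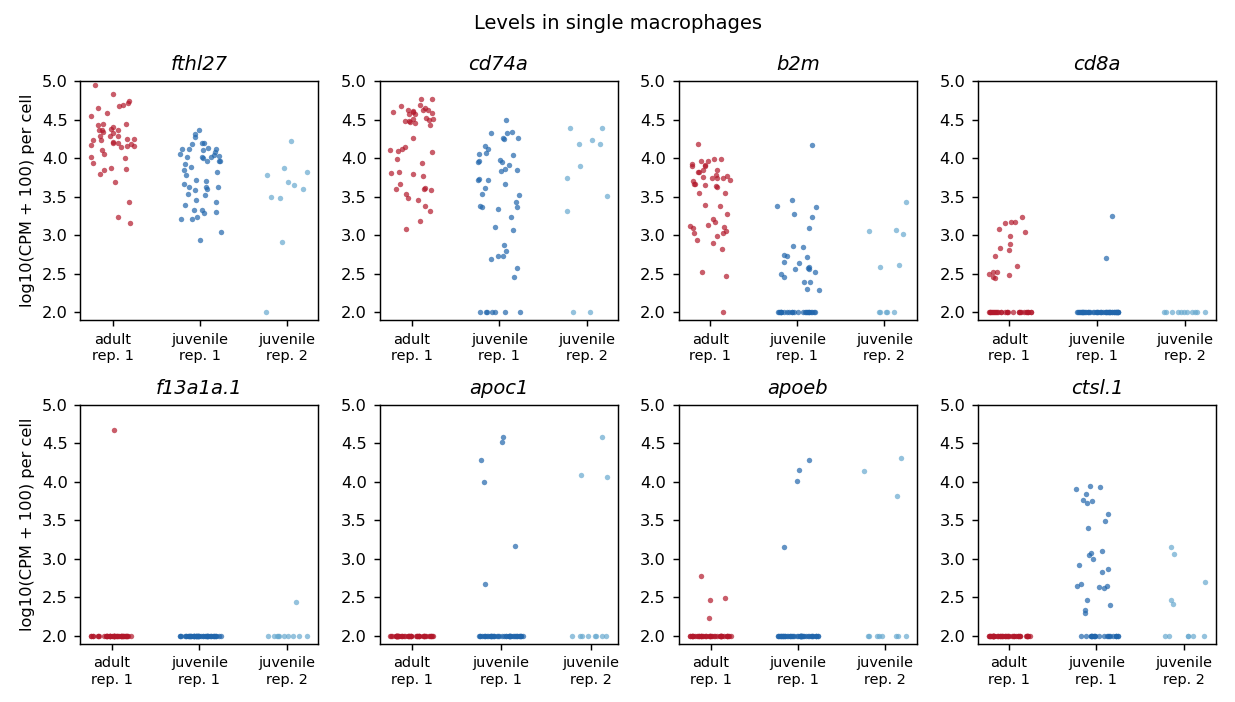
Level of 8 genes in each macrophage, as log10(CPM + 100), in adult replicate 1 (47 cells), juvenile replicate 1 (49) and juvenile replicate 2 (11); points at 2 are cells with 0 UMIs. *fthl27*, *cd74a* and *b2m* had UMIs in most cells, and the level of *cd74a* varied widely between adult cells. *cd8a* was in 18 adult cells and few of juvenile replicate 1, and *f13a1a.1* in 1 adult cell and, at 1 UMI, in juvenile replicate 2. *apoc1* and *ctsl.1* were in subsets of juvenile cells, and *apoeb* in 7 juvenile cells and, at 1 UMI each, in 4 adult cells.

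The remaining genes higher in adult macrophages differed in how many cells carried them. *icn*, an S100-type calcium-binding protein gene, stood at 4602 CPM in the adult library, against 1135 and 443 CPM in the juvenile libraries (log2 fold change 2.60, SE 0.476, adjusted p = 0.0214, edgeR). It was more abundant in the other cells, at 11506 CPM, against 1585 and 3173 CPM. *RPL37A*, a ribosomal protein gene, stood at 2239 CPM, against 475 and 404 CPM (adjusted p = 0.0419, edgeR), and in other cells at 2234 CPM, against 563 and 330 CPM. For both genes the stage difference in macrophages did not differ past the threshold from that in the other cells (adjusted p = 1 each, edgeR), and the part of free RNA in these 2 results was not tested.

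*grn1*, a progranulin-like gene, stood at 3292 CPM in the adult library, against 839 and 808 CPM in the juvenile libraries (log2 fold change 2.08, SE 0.415, adjusted p = 0.0419, edgeR). Of its 819 adult UMIs, 55.4% were in 1 cell, and without that cell the adult level was 1556 CPM and the adjusted p 0.629. The same cell held all 657 adult UMIs of *f13a1a.1*, which encodes the A subunit of clotting factor XIII, and all 63 of *F13A1_1_of_many*. It was a macrophage by the rule, with 184 UMIs of *mfap4*, 73 of *marco* and 3 of *mpeg1.1* among 14183, and the thrombocyte genes *itga2b* and *mpl* were at 0 in all macrophages. Each of the 3 calls therefore rested on 1 cell. *LOC100535170* had 48 UMIs in 7 adult cells, against 1 and 0 UMIs in the juvenile libraries, *si:ch211-147m6.2* had 61 in 11 cells, against 2 and 0, and *BX908782.2* had 40 in 7 cells, against 0 and 0, with 50% of them in 1 cell. In the other cells *BX908782.2* was also highest in the adult library, at 567 CPM, against 45.6 and 94.3 CPM, and so was *LOC100535170*, at 26.9 CPM, against 0.14 and 0 CPM.

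**Figure D5:**
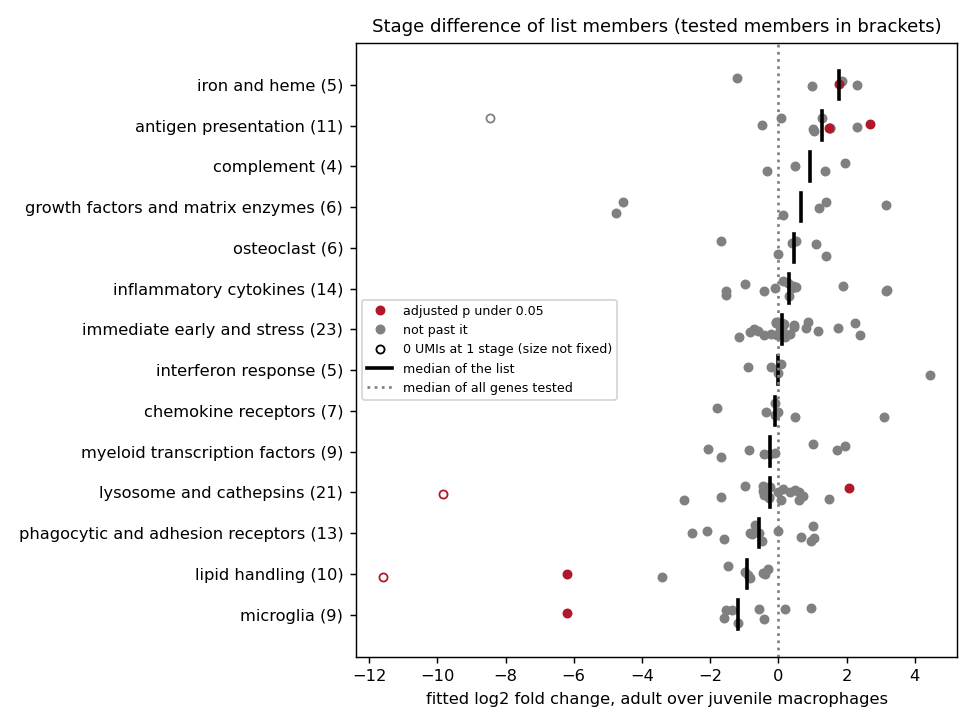
Fitted log2 fold change, adult over juvenile macrophages, of the tested members of each list with 4 or more of them; black bars are list medians, red points passed an adjusted p under 0.05, and open points had 0 UMIs at 1 stage, where the fitted size is set by the prior count. The iron median lay at 1.78, which is the value of *fthl27* itself. The antigen presentation median lay at 1.29 and the lipid handling median at -0.93.

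For the transcription factors that set myeloid identity, 9 of 12 measured genes were tested and 0 passed the edgeR test. *spi1a* and *spi1b*, the PU.1 genes required for macrophage development, stood at 330 and 301 CPM in adult replicate 1, 492 and 437 CPM in juvenile replicate 1, and 327 and 231 CPM in juvenile replicate 2. *cebpb* was the most abundant, at 1977 CPM in the adult library, against 2595 and 4947 CPM in the juvenile libraries. *irf8*, required for macrophage and microglia development, stood at 52.3 CPM, against 184 and 173 CPM, and *tfec*, a relative of Mitf, at 322 CPM, against 120 and 77.0 CPM. The adult library lay below both juvenile libraries for *cebpb* and *irf8* and above them for *tfec*, without passing the threshold (adjusted p = 0.641, 0.675 and 0.549, edgeR). Of all 2514 genes tested, 815 lay below both juvenile libraries and 846 above, so such a position is common with 1 adult library.

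Growth factors that maintain macrophages were counted in other cells only. *csf1a*, *csf1b* and *il34*, whose products bind the CSF1 receptor, had 0 UMIs in all 107 macrophages, while in the other cells they stood at 27.1, 46.0 and 18.6 CPM in adult replicate 1, 4.59, 13.4 and 18.1 CPM in juvenile replicate 1, and 1.15, 8.27 and 11.3 CPM in juvenile replicate 2. *tnfrsf11a*, the gene of the receptor RANK through which osteoclasts are formed, stood at 44.2 CPM, against 34.3 and 38.5 CPM. *tnfrsf11b*, the gene of the decoy receptor osteoprotegerin, had 33 UMIs in 7 adult macrophages, against 1 UMI and 0 UMIs in the juvenile libraries (adjusted p = 0.103, edgeR).

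Of 23 phagocytic and adhesion receptor genes measured, 13 were tested and 0 passed (edgeR, median log2 fold change -0.56). *fcer1gl*, a signalling chain of Fc receptors, was level across the libraries at 1893 CPM in adult replicate 1, 2128 in juvenile replicate 1 and 1925 in juvenile replicate 2. *mrc1b*, a mannose receptor gene, stood at 273 CPM in the adult library, against 736 and 173 CPM. *havcr1* stood at 181 CPM, against 578 and 577 CPM (adjusted p = 0.588, edgeR). Of 8 complement genes measured, 4 were tested and 0 passed. *c1qb*, given above, came nearest, with the adult library above both juvenile libraries (log2 fold change 1.96, SE 0.458, adjusted p = 0.0866, edgeR).

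Several inflammatory genes were abundant in macrophages at both stages. Of 27 measured, 14 were tested and 0 passed (edgeR, median log2 fold change 0.30). *il1b*, the interleukin-1 beta gene, stood at 1310 CPM in adult replicate 1, against 1828 and 1925 CPM in the juvenile libraries. *cxcl8a*, a chemokine gene that attracts neutrophils, stood at 2789 CPM, against 1160 and 4196 CPM, and *tnfb*, a tumor necrosis factor gene, at 494 CPM, against 1092 and 1982 CPM. The juvenile libraries lay on both sides of the adult one for *cxcl8a* and above it for *il1b* and *tnfb*. *il6*, *il10*, *nos2a* and *nos2b* had 0 UMIs. Of 24 immediate early and stress genes, whose transcripts can rise during dissociation of a tissue, 23 were tested and 0 passed. *fosab* stood at 699 CPM in adult macrophages, against 1250 and 731 CPM in juvenile macrophages, and at 10684, 3163 and 2760 CPM in the other cells of the 3 libraries. The heat shock gene *hsp70.2* ran the other way, at 1612 CPM in adult macrophages, against 150 and 597 CPM in juvenile macrophages (adjusted p = 0.204, edgeR). *hsp70.1*, *hsp90aa1.2* and *dnajb1b* were also highest in the adult library without passing, and for all 4 genes the adult library was highest in the other cells as well. The part of these genes in the stage differences was not tested. Of 16 interferon response genes measured, 5 were tested and 0 passed, as did 0 of 7 chemokine receptor genes tested.

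Subsets were described by the share of macrophages with 2 or more genes of a list, where 1 library against 2 cannot go below p = 0.333 in an exact permutation test. Of the osteoclast list, 2 or more genes were found in 59.6% of macrophages of adult replicate 1, 53.1% of juvenile replicate 1 and 63.6% of juvenile replicate 2 (p = 1, exact permutation test), against 8.89%, 2.17% and 2.16% of the other cells. After thinning the macrophage shares were 10.9%, 13% and 0%. *ctsk*, the cathepsin K gene of osteoclasts, stood at 137 CPM in the adult library, against 432 and 500 CPM, and *acp5a* at 285 CPM, against 514 and 57.7 CPM. *acp5b* and *calcr* were at 0, and *nfatc1*, *dcstamp* and *siglec15l* had 1 UMI each. *ocstamp*, a gene of osteoclast fusion, had 12 UMIs in the adult library, against 6 and 0 UMIs, and *ca2*, a carbonic anhydrase gene, had 21 UMIs, against 10 and 2.

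The microglia list was found in 80.9%, 87.8% and 81.8% of macrophages in the same order (p = 0.667, exact permutation test), and in 12.3%, 3.74% and 7.15% of other cells, with *p2ry12*, a defining microglia gene, at 1 UMI. After thinning the microglia list was found in 50.0%, 60.9% and 27.3% of macrophages, against 2.47%, 0.954% and 2.09% of other cells. The dendritic cell list was found in 34%, 46.9% and 54.5% (p = 0.333, exact permutation test), through *cd83* and *id2a*, while *flt3*, *xcr1a.1*, *batf3* and *ccr7* were at 0. After thinning it was found in 13%, 13% and 27.3%. The other cells held it in 2.86%, 3.46% and 5.47% before thinning. Cell cycle genes were found in 38.3%, 51.0% and 63.6% (p = 0.333, exact permutation test), through *hmgb2a* and *hmgb2b*, and in 23.6%, 42.5% and 50.9% of other cells. After thinning they were found in 8.70%, 8.70% and 36.4% of macrophages, against 5.39%, 22.9% and 30.6% of other cells. In juvenile replicate 1 the thinned macrophages thus lay below the other cells. *mki67*, the proliferation marker Ki-67, had 3, 1 and 0 UMIs. The metaphocyte list, of epithelium-like phagocytes of ectodermal origin in the fish skin, was found in 4.26%, 0% and 0%, against 3.95% of the other cells of adult replicate 1.

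A test of whether the stage difference in macrophages differed from that in the other cells of the same libraries covered 17573 genes and found a more positive stage difference in macrophages for 5 (0.0285% of those tested) and a more negative one for 6 (0.0341%) (edgeR quasi-likelihood test with the library as a block). The test sets the 2 differences against each other, so a gene can pass through a change in either group of cells. The stage difference within the other cells passed for 0 of 22793 genes in the edgeR test, with 5234 at an unadjusted p under 0.05. The 6 with the more negative difference were *apoc1*, *apoeb*, *ctsl.1*, *g0s2*, *rbp2a* and *CU929150.1*. *rbp2a*, a retinol-binding protein gene, had 0 UMIs in adult macrophages, against 15 and 12 UMIs in the juvenile libraries (adjusted p = 0.00104, edgeR). In juvenile replicate 1, 13 of these UMIs lay in 2 *apoc1*+ cells and 2 in 2 other macrophages. In juvenile replicate 2 all 12 lay in 2 cells. *CU929150.1* had 0 UMIs, against 21 and 0, with 95.2% of them in 1 cell (adjusted p = 0.00137, edgeR).

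Among the 5 with the more positive difference were genes of T cell co-receptors. *cd8a* had 54 UMIs in 18 of 47 adult macrophages, against 6 UMIs in 2 of 49 and 0 UMIs in 11 juvenile macrophages, which is 217 CPM, against 25.7 and 0 CPM. In the other cells the order was turned round, with 3.93 CPM in the adult library, against 39.3 and 15.5 CPM (adjusted p of the difference = 0.00691, edgeR). Those other cells included 9 lymphocytes in the adult library, against 469 and 357 in the juvenile libraries, and the part of that number in these calls was not tested. Against lymphocytes alone *cd8a* and *cd8b* did not pass (adjusted p = 1 and 0.0749) and *cd4-1* did (adjusted p = 0.0411, edgeR). After thinning, 17.4% of adult macrophages had a *cd8a* UMI, against 4.35% and 0% of juvenile macrophages, and 0.275%, 3.88% and 1.95% of other cells. *cd8b* had 36 UMIs in 8 adult macrophages, against 1 UMI and 0 UMIs (adjusted p = 0.00104, edgeR), and *cd4-1* had 30 UMIs in 15, against 14 in 8 and 2 in 2 (adjusted p = 5.47e-05, edgeR). In the other cells *cd4-1* had 0 UMIs in the adult library and stood at 58.8 and 31.9 CPM in the juvenile libraries. *cd8a* or *cd8b* was found in 21 adult macrophages and 2 juvenile ones, while *lck*, *zap70*, *il7r* and the other T or NK lymphocyte genes measured were at 0 in the adult macrophages. In the stage comparison of macrophages alone none of the 3 was past the threshold, with an adjusted p of 0.129 for *cd8a*, 0.0866 for *cd8b* and 0.909 for *cd4-1* (edgeR).

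The remaining 2 genes were of other kinds. *si:dkey-193p11.2* had 98.3% of its 59 adult UMIs in 1 cell (adjusted p = 0.0162, edgeR). *XLOC_010899* stood in macrophages at 514 CPM in the adult library, against 450 and 789 CPM in the juvenile libraries, and in the other cells at 280 CPM, against 2444 and 3669 CPM (adjusted p = 0.0162, edgeR). With lymphocytes (2 or more T or NK genes) in place of the other cells, 4065 genes were tested, and the stage difference was more positive in macrophages for 15 (0.369%) and more negative for 6 (0.148%), with 9 adult lymphocytes on which these calls rest. The median log2 fold change of all 4065 genes was 0.73 in this fit, so it leaned as a whole to the more positive side. With library totals the median was -0.15. Among the 15 were *fthl27*, *fth1a* (adjusted p = 0.000192, edgeR), *icn* and *tnfrsf18*, a tumor necrosis factor receptor gene, which stood at 426 CPM in adult macrophages, against 94.2 and 19.2 CPM in juvenile macrophages (adjusted p = 0.0453, edgeR). Among the 6 were *ch25h*, a cholesterol hydroxylase gene (adjusted p = 0.00322, edgeR), and *vmp1*, an autophagy gene (adjusted p = 6.27e-06, edgeR).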

How the data were processed

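The authors deposited UMI counts per gene and cell barcode, made from 10x Genomics 3′ (v2) libraries with Cell Ranger on GRCz11, unfiltered for genes or mitochondrial share and not normalized. The sources used here do not give the annotation release. Per the labels the submitters used Seurat 4.1.1. The 4 libraries held 6986539 to 24854689 UMIs over 21645 barcodes and 39988 genes, 106 symbols of which occur more than once and were kept apart. Cells with over 200 and under 2500 genes and under 25% mitochondrial UMIs were kept. Doublets were not called, and an alternative left out macrophages with 2 markers of another class.

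UMIs were summed per library and tested by quasi-likelihood in edgeR 4.0.16 under R 4.3.3, after filterByExpr and TMM scaling. All genes tested entered the Benjamini-Hochberg adjustment, and the threshold was 0.05. DESeq2 1.42.0 was an alternative. Libraries of pooled fish were the replicates. With 1 adult library in the expression tests, their p-values take the spread from the 2 juvenile libraries, which differed in gate. No spread between adult libraries enters them. Adult replicate 2 held 0 macrophages and entered no expression test. The labels give no replicate numbers, and replicates are numbered by accession order. Intervals are exact (Clopper-Pearson, Poisson) and cover counting error only. A fold against 0 UMIs takes 3 UMIs as its floor and is no lower limit where the UMIs lie in few cells. The text names the genes past the threshold with at least 20 UMIs and the adult library above or below both juvenile libraries. It also names the 20 genes leading macrophages (at least 200 UMIs), up to 4 abundant members per list and the largest differences from other cells. Members and gene lists were chosen with earlier results of these data known. Lymphocytes were cells with 2 or more of 8 measured T or NK genes that were no macrophages. The tests were tried on simulated counts with the same spread in every library. Such counts do not cover a different spread in the adult library or UMIs held by few cells.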

Additional observations from a re-analysis of the deposited data

Results flagged for a closer look

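For 11 genes the stage difference in macrophages differed from that in the other cells of the same libraries (edgeR quasi-likelihood test of the interaction, adjusted p). The difference was more positive in macrophages for *cd4-1* (adjusted p = 5.47e-05), *cd8b* (0.00104), *cd8a* (0.00691), *si:dkey-193p11.2* (0.0162) and *XLOC_010899* (0.0162). It was more negative for *apoc1* (0.000189), *apoeb* (0.000189), *rbp2a* (0.00104), *CU929150.1* (0.00137), *ctsl.1* (0.0162) and *g0s2* (0.0353). Of these, *si:dkey-193p11.2* and *CU929150.1* had most of their UMIs in 1 cell. Others also rested on few juvenile macrophages: *apoc1* on 9, *apoeb* on 7 and *g0s2* on 6, sets that overlapped. *rbp2a* was likewise found in few juvenile macrophages of each library.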

How the results depend on the processing

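No paired analysis was possible because the labels give no replicate numbers that pair libraries across stages. The count of genes past the threshold between stages was 15 of 2514 tested. It was 0 with DESeq2 size factors (188 genes at an unadjusted p under 0.05, edgeR) and 0 with library totals (131). It was 28 of 13388 with no filter on low counts, 1 of 1329 with 3 or more markers and 2 of 2412 with *csf1ra* not used. With no upper limit on genes it was 3 of 2509, and in DESeq2 1 of 13388. Without cells with 2 markers of another class it was 19 of 562 genes tested (18 higher, 1 lower). Of the 15 genes, 8 were tested in that setting and 4 passed. Of 2 alternatives chosen after seeing the data, the first did not count red blood cell genes for that rule and gave 23 of 1257. Of the 15 genes, 12 were tested there and 6 passed, while *fthl27* (adjusted p = 0.670), *cd74a* (0.623) and *grn1* (0.995) did not (edgeR). The second left out the adult cell with *f13a1a.1* and gave 9 of 2490. With no filter *b2m* passed and *fthl27* did not (adjusted p = 0.0126 and 0.420, edgeR). Library totals moved the median log2 fold change of all genes to -0.13, and the antigen presentation genes then split 8 positive to 3 negative and the lipid handling genes 0 to 10. No gene named from the stage comparison turned its direction. The alternatives reuse the same libraries, and genes past the threshold were named only with the adult library above or below both juvenile ones. A kept direction was thus largely set in advance and is no support for them. Leaving out a juvenile library leaves 1 library against 1 and no test.

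The count against the other cells was 11 (5 differences more positive in macrophages, 6 more negative). It was 35 with size factors, 54 with library totals (15 more positive, 39 more negative), 30 with no filter, 22 with 3 or more markers, and 5 without cells with 2 markers of another class, red blood cell genes counted or not. Against lymphocytes it was 21 of 4065 genes tested, and with library totals 30 (11 more positive, 19 more negative). With no filter it was 0 of 22137 (153 at an unadjusted p under 0.05, edgeR). It was 46 of 2327 with 3 or more markers and 5 of 1799 without cells with 2 markers of another class. The last setting leaves 26, 1 and 5 macrophages in adult replicate 1 and juvenile replicates 1 and 2.

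The difference in macrophage share, 0.770 percentage points, ranged from -0.364 without adult replicate 1 to 1.9 without adult replicate 2, and was 0.304 in thinned cells. For the subset lists, leaving out cells with 2 markers of another class gave 23.8 percentage points for osteoclast, -23.1 for microglia, -37.7 for dendritic cell, 7.69 for metaphocyte and 10.8 for cell cycle genes. Juvenile replicate 1 then held 1 macrophage, so its share was 0% or 100% by that single cell and these values say little. Thinning gave 5.93 for microglia, -7.11 for dendritic cell and 0 for metaphocyte genes, and 3 or more genes gave -2.04 for dendritic cell and 0 for metaphocyte genes. Without juvenile replicate 1 the osteoclast difference was -4.06, and without juvenile replicate 2 it was 6.51.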
